A study of Mus musculus with 4 samples.

Results

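The mitochondrial ribosomal proteins are encoded by nuclear genes, made in the cytosol and imported to build the ribosome inside mitochondria. Their genes were taken by name, as every gene of the deposited table whose symbol is Mrpl or Mrps followed by a number and at most 1 letter. The rule uses no measured value, although the group was proposed with earlier results of these data known. This gave 76 of 20377 genes, of which 47 carry a large-subunit name (Mrpl) and 29 a small-subunit name (Mrps). The study used RNA sequencing to profile insulin-positive cells that derive from cultured primary gallbladder cells of the mouse. The samples form 1 group, rGBC2, with 4 libraries called replicates 1 to 4 here. The donor mice were 8 weeks old, on a C57BL/6 background, and carried the MIP-GFP reporter transgene B6.Cg-Tg(Ins1-EGFP)1Hara/J. After expansion in culture the cells were given 4 transcription factors, namely Pdx1, Ngn3, Mafa and PAX6, and were treated with unnamed compounds over 10 days. Cells positive for the reporter were then sorted by fluorescence, and their total RNA went into TruSeq v2 libraries.

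Several features of the design limit what the values can show. The reporter is driven by an Ins1 promoter, so every library comes from cells selected for activity of that promoter. No sample of another group was analysed here, and all statements concern levels within these 4 libraries. Nothing in the labels ties the 4 libraries to separate animals or cultures, so the p-values measure the spread between these samples, which may be technical. In such bulk samples, fewer cells of a type and less RNA per cell cannot be told apart.

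The marker genes bore on the labelled cell type in both directions. Of 10 markers of insulin-producing cells, 7 were above 1 RPKM (reads scaled to transcript length and library depth), as were 65.0% of all genes tested. Ins2 stood at 1091, 3704, 3851 and 4240.1 RPKM in replicates 1 to 4, whereas Nkx6-1 and Ucn3 were called below 1 RPKM and Pcsk1 was called neither way. Of 6 biliary markers 5 were above 1 RPKM, with Krt7 at 466, 482, 802 and 789 RPKM. As most genes pass 1 RPKM, these 2 counts alone do not identify a cell type. None of the 4 endothelial, 4 leukocyte, 4 mesenchymal or 4 acinar markers was called above 1 RPKM, and Cd3e, Prss1 and Pnlip were listed at 0 in all 4 libraries. The file holds no read totals. Depths estimated from the steps between low values were 24.1, 22.2, 24.6 and 32.9 M reads, at which 3 reads on a transcript of 1 kilobase equal 0.124, 0.135, 0.122 and 0.0912 RPKM. A whole multiple of these depths would give the same steps, with read numbers higher and floors lower by that multiple. Replicates 3 and 4 were more alike than any other pair, with a median absolute difference of 0.08 between them on the log2(RPKM + 1) scale over all genes tested, against 0.23 to 0.33 for the other pairs. Their difference exceeded counting error, with a chi-square of 13.6 per gene and a median of 2.48 over genes, where the other pairs had medians of 18.9 to 50.8. They were counted as separate samples, as the labels list them, and these values do not show whether they come from separate cells.

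Mitochondrial ribosomes translate the few proteins that the mitochondrial genome encodes, all of them membrane subunits of the respiratory chain complexes and ATP synthase. Compared with bacterial ribosomes they hold less RNA and more protein, and many of their proteins have no bacterial counterpart. In pancreatic beta cells, mitochondrial ATP production couples glucose uptake to insulin release.

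Most of these genes lay above the median level of all genes. The median member stood at 31.3, 36.6, 38.7 and 44.9 RPKM in replicates 1 to 4, or 37.6 RPKM over the 4 libraries. The corresponding median was 6.97 RPKM over all 16919 genes tested and 16.96 RPKM over the genes called above 1 RPKM. All 76 members had reads in at least 1 library and entered the test. By limma on log2(RPKM + 1), with Benjamini-Hochberg adjustment over all genes tested and a threshold of 0.05, 75 of 76 members lay above 1 RPKM, a level that 65.0% of all genes tested passed. The remaining member, Mrpl23, was called below it, as were 26.1% of all genes tested. At the higher level of 10 RPKM, 66 members were called above, compared with 35.9% of all genes tested. Mrpl35, Mrpl19, Mrps36 and Mrpl23 were called below 10 RPKM, as were 48.2% of all genes tested, and 6 members were called neither way. Members spanned a wide range, with the middle 50% of their means between 18.9 and 60.0 RPKM.

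**Figure D1:**
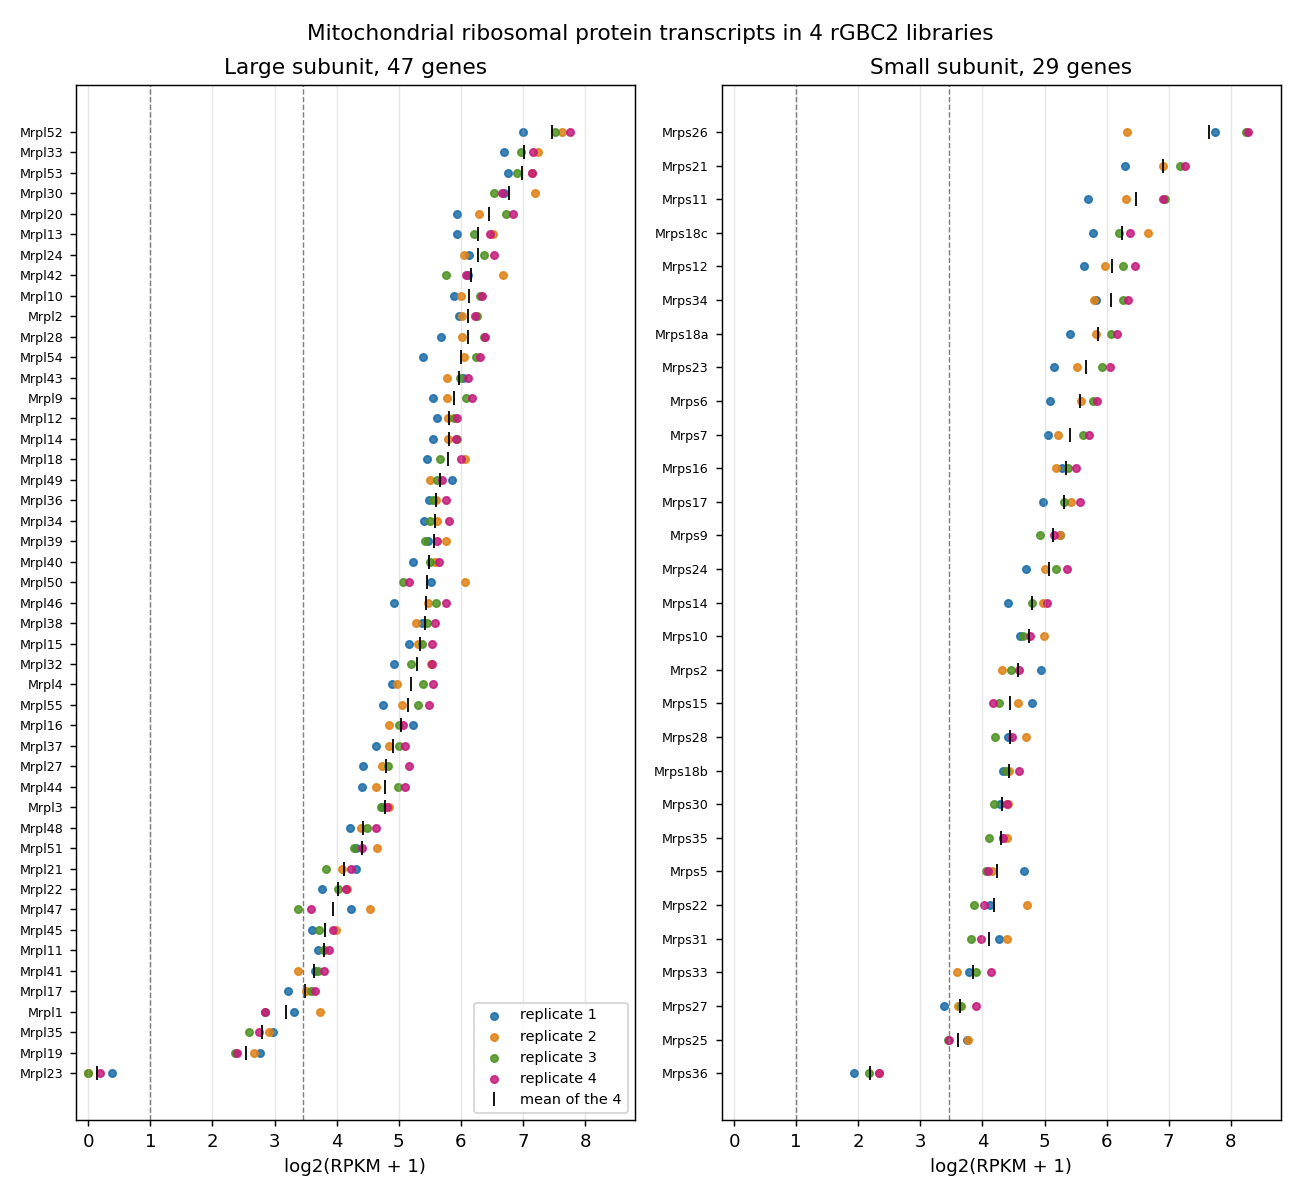
Level of each of the 76 mitochondrial ribosomal protein genes, as log2(RPKM + 1) on the horizontal axis, with 1 point per library (colours mark replicates 1 to 4) and a black tick at the mean; large-subunit genes are on the left and small-subunit genes on the right, and the dashed lines mark 1 and 10 RPKM. Mrpl23 lies alone near 0, most genes lie to the right of the 10 RPKM line, and the points of Mrps26 are the farthest apart.

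The genes lie on 17 chromosomes, and many of them share a start region with another gene. In the deposited mm9 coordinates, 23 of 76 members (30.3%) have a gene on the opposite strand whose start lies within 1000 bases upstream of their own. The same holds for 7.76% of all genes of the table and for 9.185% of those tested. In 1 case both partners are mitochondrial ribosomal proteins: Mrps11 (plus strand, chromosome 7, 85928016 to 85937874) and Mrpl46 (minus strand, chromosome 7, 85920226 to 85927975) start 41 bases apart and are read in opposite directions. The partners have varied roles, and the following examples were chosen after their values were seen. Mrps12 starts 209 bases from Sars2, the mitochondrial seryl-tRNA synthetase. Mrpl43 starts 115 bases from Peo1, the mitochondrial DNA helicase. Mrpl47 starts 307 bases from Ndufb5, a subunit of respiratory complex I. Partners could differ widely in level: Mrps12 stood at 48.5, 61.8, 75.7 and 86.6 RPKM, and Sars2 stood at 4.86, 4.28, 7.36 and 6.8 RPKM. Mrpl10, at 58.5, 63.2, 77.9 and 80.3 RPKM, faces Lrrc46, which ranged from 0.47 to 0.83 RPKM. Mrpl32, at 29.3, 44.9, 35.7 and 45.5 RPKM, faces the proteasome subunit Psma2, which stood at 101, 149.9, 127 and 148 RPKM.

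The start regions of these genes held certain promoter letters more often than those of other genes. RefSeq windows of 300 bases (build GRCm38.p6, 250 before to 50 after a start) were at hand for 67 of 76 members, in 73 windows, and for 14327 genes of the table, in 17573 windows. Motifs were searched on both strands as exact letters. The ETS core CCGGAAG, bound by factors such as GABP, was found in 24 member windows (32.9%), against 11.7% of all windows. The YY1 core AAGATGGC was found in 12 (16.4%), against 3.11%, and the NRF1 core GCGCATGCG in 7 (9.59%), against 2.53%. At least 1 of these was present in 36 member windows (49.3%), against 16.1% of all windows, and 7 member windows held at least 2 of them. The TATA letters TATAAA were in 5 member windows (6.85%), against 12.2% of all windows. Over the windows of genes tested here, the shares were 13.4% for ETS, 3.43% for YY1, 2.88% for NRF1 and 8.81% for TATA. No member window held overlapping matches of different motifs. The 36 members with any of the ETS, YY1 or NRF1 letters had a median of 46.7 RPKM, and the 31 members whose windows held none had a median of 27.0 RPKM. Each motif alone gave a smaller contrast, with medians of 43.1 RPKM with and 34.5 RPKM without ETS, 44.3 RPKM with and 34.3 RPKM without YY1, and 38.2 RPKM with and 36.7 RPKM without NRF1. These counts describe letters and not bound sites, and the comparisons were not tested.

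Windows are printed 5′ to 3′ on the strand of the gene, in lower case, with matches to any of the 4 motifs on either strand in capitals. The windows of Mrps11 (chr7:78782881-78783180, plus strand) and Mrpl46 (chr7:78783040-78783339, minus strand) are shown because they share 141 bases, each as the reverse complement of the other.
Mrps11: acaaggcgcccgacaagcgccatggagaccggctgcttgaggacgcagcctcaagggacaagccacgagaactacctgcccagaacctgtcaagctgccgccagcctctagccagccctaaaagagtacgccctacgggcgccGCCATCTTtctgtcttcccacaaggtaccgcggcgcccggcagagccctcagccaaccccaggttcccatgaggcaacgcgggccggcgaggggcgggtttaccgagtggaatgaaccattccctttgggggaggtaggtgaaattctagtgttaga
Mrpl46: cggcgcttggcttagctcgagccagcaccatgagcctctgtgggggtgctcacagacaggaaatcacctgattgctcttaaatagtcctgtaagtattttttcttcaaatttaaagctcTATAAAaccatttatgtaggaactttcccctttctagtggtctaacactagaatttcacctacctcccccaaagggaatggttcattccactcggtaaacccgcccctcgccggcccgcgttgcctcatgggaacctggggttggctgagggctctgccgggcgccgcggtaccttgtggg
The capitals are a YY1 match in the Mrps11 window and a TATA match in the Mrpl46 window, and both lie outside the shared stretch. The windows of Mrps12 (chr7:28741772-28742071, minus strand), a YY1 and an ETS match, and of Mrpl32 (chr13:14612988-14613287, minus strand), a YY1 match and NRF1 matches at 2 places, are shown as head-to-head genes with different motifs.
Mrps12: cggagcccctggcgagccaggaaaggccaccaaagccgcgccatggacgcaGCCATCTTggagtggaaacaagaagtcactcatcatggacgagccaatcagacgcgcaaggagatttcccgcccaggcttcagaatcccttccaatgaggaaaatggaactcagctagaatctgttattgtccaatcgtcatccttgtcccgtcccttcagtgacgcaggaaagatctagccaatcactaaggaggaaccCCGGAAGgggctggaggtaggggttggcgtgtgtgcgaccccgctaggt
Mrpl32: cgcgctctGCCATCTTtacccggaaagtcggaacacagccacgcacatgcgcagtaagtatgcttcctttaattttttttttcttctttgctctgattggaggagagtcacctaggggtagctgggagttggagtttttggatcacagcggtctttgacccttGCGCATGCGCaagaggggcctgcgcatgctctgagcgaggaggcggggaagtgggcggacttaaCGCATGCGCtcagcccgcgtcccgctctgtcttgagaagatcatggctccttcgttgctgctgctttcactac
The first NRF1 place in the Mrpl32 window is longer than the motif because matches on both strands overlap there. The windows of the member with the highest mean in each subunit complete the set. They are those of Mrpl52 (chr14:54426659-54426958, plus strand) with 2 ETS matches and Mrps26 (chr2:130563507-130563806, plus strand) with 1 ETS match.
Mrpl52: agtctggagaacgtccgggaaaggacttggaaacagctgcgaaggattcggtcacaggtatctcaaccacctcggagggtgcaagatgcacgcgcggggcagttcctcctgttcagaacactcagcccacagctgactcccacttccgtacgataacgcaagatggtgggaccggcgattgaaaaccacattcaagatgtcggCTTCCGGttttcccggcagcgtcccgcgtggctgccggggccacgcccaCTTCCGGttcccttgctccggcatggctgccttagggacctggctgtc
Mrps26: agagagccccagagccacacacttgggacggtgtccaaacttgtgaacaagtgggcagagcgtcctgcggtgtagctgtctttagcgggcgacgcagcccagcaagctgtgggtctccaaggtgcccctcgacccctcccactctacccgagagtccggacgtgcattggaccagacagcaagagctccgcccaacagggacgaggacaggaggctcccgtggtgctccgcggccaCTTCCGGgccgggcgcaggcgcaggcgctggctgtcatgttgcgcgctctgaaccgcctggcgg

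Among the large-subunit genes, the highest included both relatives of bacterial proteins and proteins that bacteria lack. Mrpl52, a protein with no bacterial counterpart (chromosome 14, 55045745 to 55048587), stood at 127, 197, 181 and 215 RPKM in replicates 1 to 4. Mrpl33, a relative of bacterial L33, stood at 103, 151, 124 and 143 RPKM. Mrpl53, again without a bacterial counterpart, stood at 107, 141, 119 and 139.8 RPKM. For all 3 the lowest library was replicate 1, and their means were 180.0 ± 38.2 RPKM (SD, n = 4), 130.1 ± 21.5 RPKM (SD, n = 4) and 127 ± 16.4 RPKM (SD, n = 4). All of the transcript sequence of Mrpl53 is shared, as 50-base words, with Gm42688, and its deposited span overlaps Ccdc142 by 14 bases on the same strand, so its reads cannot be assigned to 1 gene with certainty. Mrpl30, whose highest library was replicate 2, stood at 103, 146, 91.5 and 100.2 RPKM. Mrpl20, which in bacteria helps to start assembly of the large subunit, stood at 60.5, 77.4, 104 and 114 RPKM. Mrpl13, Mrpl24 and Mrpl42 followed, with means of 77.6, 77.1 and 72.5 RPKM. Mrpl24 overlaps BC023814 on the other strand over 833 bases, and 42.5% of its 50-base words are shared with other annotated genes. All 8 of these genes were called above 10 RPKM by limma, as were 40 of the 47 large-subunit genes and 35.9% of all genes tested. The 8 were picked by their means in these same libraries, so their calls add nothing to that ranking.

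Genes for the functional centres of the large subunit differed in level. Mrpl12 forms the flexible stalk that recruits translation factors. It stood at 48.2, 54.6, 58.6 and 60.1 RPKM, a mean of 55.4 ± 5.31 RPKM (SD, n = 4). Mrpl10, which anchors that stalk, averaged 69.97 ± 10.7 RPKM (SD, n = 4). Both were lowest in replicate 1 and highest in replicate 4. Mrpl11, at the nearby site where factors hydrolyse GTP, was lower and steady, at 12.03, 12.9, 12.8 and 13.7 RPKM. It was called above 10 RPKM with all 4 libraries (log2 difference 0.33 ± 0.11 SE, limma adjusted p = 0.0335). It was not called without replicate 3 (difference 0.33, adjusted p = 0.165) or without replicate 4 (difference 0.30, adjusted p = 0.18). Of the proteins that surround the peptidyl transferase centre, Mrpl2 averaged 68.7 ± 7.06 RPKM (SD, n = 4), Mrpl4 averaged 36.5 ± 8.38 RPKM (SD, n = 4), and Mrpl3 averaged 26.4 ± 1.18 RPKM (SD, n = 4). Mrpl3 had the smallest spread of all named large-subunit members, at 25.5, 27.8, 25.4 and 27.1 RPKM. Mrpl44, whose fold is related to RNase III, averaged 26.99 ± 5.98 RPKM (SD, n = 4). Mrpl15, a relative of bacterial L15, stood at 35.02, 38.8, 40.6 and 45.3 RPKM, again lowest in replicate 1 and highest in replicate 4.

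The lowest large-subunit genes included proteins of the exit tunnel and of the L1 stalk. Mrpl45, which contacts the inner membrane at the tunnel exit, stood at 11.1, 14.8, 12.2 and 14.3 RPKM. Its call above 10 RPKM (log2 difference 0.35 ± 0.13 SE, limma adjusted p = 0.0434) was lost without replicate 2, 3 or 4, with adjusted p between 0.0974 and 0.195. The log2 differences were then 0.29, 0.38 and 0.31. Mrpl41 stood at 11.6, 9.41, 11.9 and 12.9 RPKM, and Mrpl17, at the tunnel exit, stood at 8.33, 10.4, 11.1 and 11.6 RPKM. Neither was called above or below 10 RPKM, and they lie just beside that level. Mrpl1, of the stalk where spent tRNA leaves, was higher in replicates 1 and 2, at 8.92, 12.2, 6.21 and 6.19 RPKM. Mrpl35 stood at 6.87, 6.5, 4.99 and 5.74 RPKM, and Mrpl19, at the face between the subunits, at 5.8, 5.37, 4.12 and 4.25 RPKM. These were called below 10 RPKM (limma adjusted p = 0.00998 for Mrpl35 and 0.00308 for Mrpl19). The call of Mrpl35 was lost without replicate 3 (adjusted p = 0.0798) or replicate 4 (adjusted p = 0.0581). Its log2 difference was then -0.58 and -0.64, against -0.65 with all 4 libraries. Mrpl19 overlaps AW146020 on the other strand over 1253 bases. Of its 50-base words, 40.3% are shared with other annotated genes, Gcfc2 first among them. Mrpl41 overlaps Wdr85 on the other strand over 1002 bases.

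Mrpl23, a protein of the tunnel exit (chromosome 7, 149719021 to 149726647), stood apart from all other members. It was listed at 0.3, 0, 0 and 0.14 RPKM, and was called below 1 RPKM (limma adjusted p = 6.48e-05). At the estimated depths these values correspond to about 5, 0, 0 and 3 reads, and 3 reads on its transcript equal 0.180, 0.195, 0.176 and 0.132 RPKM. Of the 50-base words in its transcript, 76.4% also occur in the processed pseudogene Mrpl23-ps1. The sources used here do not say how reads with several matches were counted, and a loss of such reads was not tested. Among the 72 members with a matched transcript, 26 shared any word with a pseudogene, and Mrpl23 was the only one to share over 50%. Mrps36, the second lowest member, had the next largest share, 38.9%. Across the 72 members the median share with pseudogenes was 0%, against 44.1% across 83 cytosolic ribosomal proteins, of which 38 shared over 50%.

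Among the small-subunit genes, Mrps26 had the highest mean and was the most variable. Mrps26, which has no bacterial counterpart (chromosome 2, 130389492 to 130391130), stood at 213, 79.7, 302 and 309 RPKM, above 98.0% of the genes tested. Replicate 2 was the low library, 3.88 times below the highest, and the SD of 0.91 on the log2(RPKM + 1) scale was the largest of all 76 members. In replicate 2 Mrps26 lay below Mrps21 (119.6 RPKM) and Mrps18c (100.0 RPKM). No transcript was matched for Mrps26, so its shared sequence and G+C content were not examined. Mrps21, a relative of bacterial S21, stood at 77.4, 119.6, 144 and 153 RPKM. Mrps11, of the platform that holds the 3′ end of the small rRNA, stood at 51.2, 78.7, 121 and 119.5 RPKM. Both were lowest in replicate 1 and higher in replicates 3 and 4. Mrpl46, the head-to-head neighbour of Mrps11, had a smaller range, at 29.3, 43.5, 47.3 and 53.4 RPKM. Mrps12, which monitors codon pairing in the decoding centre, averaged 68.2 ± 16.6 RPKM (SD, n = 4). Mrps7, of the head near the path of the messenger RNA, averaged 42.1 ± 9.40 RPKM (SD, n = 4). Mrps34 stood at 56.1, 54.8, 76.1 and 80.4 RPKM, and 52.4% of its 50-base words are shared with Mapk8ip3.

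The 4 lowest small-subunit genes all encode proteins without a bacterial counterpart. Mrps33 stood at 12.7, 11.1, 13.8 and 16.6 RPKM. It was called above 10 RPKM with all 4 libraries (log2 difference 0.39 ± 0.14 SE, limma adjusted p = 0.0376), but not without replicate 1, 3 or 4, with adjusted p between 0.0688 and 0.202. The log2 differences were then 0.42, 0.38 and 0.30. Mrps27, a pentatricopeptide repeat protein, stood at 9.45, 11.2, 11.6 and 13.9 RPKM, and Mrps25 at 12.5, 12.6, 9.85 and 10.1 RPKM. Neither was called above or below 10 RPKM by limma (adjusted p = 0.275 for Mrps27 and 0.337 for Mrps25). Mrps25 overlaps Nr2c2 on the other strand over 3536 bases, and 73.9% of its 50-base words are shared with other annotated genes, Nr2c2 first among them. Mrps36 was the lowest, at 2.83, 4.05, 3.5 and 4.05 RPKM, and was called below 10 RPKM (limma adjusted p = 0.000633). The protein of Mrps36 is also known as a component of the oxoglutarate dehydrogenase complex, and not as a fixed part of the ribosome. Mrps30, whose protein sits in the large subunit despite its name, was among the steadiest members, at 18.5, 20.2, 17.3 and 20.1 RPKM.

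The 3 Mrps18 genes encode related proteins, of which Mrps18c alone is classed as the counterpart of bacterial S18. Mrps18a stood at 41.6, 55.9, 66.2 and 70.5 RPKM, Mrps18b at 19.1, 20.5, 19.8 and 23 RPKM, and Mrps18c at 54.1, 100.0, 72.4 and 82.2 RPKM. Mrps18b was the lowest of the 3 in every library, and Mrps18c the highest. Their proteins take different places, since those of Mrps18b and Mrps18c belong to the small subunit and that of Mrps18a to the large subunit. On the log2(RPKM + 1) scale, Mrps18a exceeded Mrps18b by 1.44 ± 0.26 (SD, n = 4; a 2.71-fold difference, higher in 4 of 4 libraries). Mrps18b was lower than Mrps18c by a 3.54-fold difference (log2 difference -1.82 ± 0.32, lower in 4 of 4). Mrps18a was lower than Mrps18c by a log2 difference of -0.39 ± 0.31, in 4 of 4 libraries, with values between -0.83 and -0.13. Flipping the signs of the differences of the 4 libraries in all ways, an exact permutation test that is two-sided, gave p = 0.125 for each of the 3 pairs, also after adjustment over them, which is the smallest p that 4 libraries allow. Leaving out replicate 2 moved the last of these differences to -0.24. Of the 50-base words of Mrps18b, 63.7% are shared with other annotated genes, including the antisense gene Gm16279, so its reads cannot be assigned to 1 gene with certainty.

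Large-subunit genes had a higher median than small-subunit genes in every library. The medians of 47 large-subunit and 29 small-subunit genes were 36.6 and 26.8 RPKM in replicate 1, 44.3 and 30.7 RPKM in replicate 2, 41.7 and 26.8 RPKM in replicate 3, and 47.1 and 32.0 RPKM in replicate 4. The difference of the medians of log2(RPKM + 1) was 0.53 ± 0.08 (SD, n = 4), a 1.44-fold difference, with 4 of 4 libraries in that direction. The single values were 0.43, 0.52, 0.62 and 0.54. With means in place of medians the difference was 0.14, 4 of 4 libraries again being positive, so its size depends on the summary. Moving Mrps18a and Mrps30 to the large subunit, where their proteins sit, left it at 0.53. The 2 sets overlap almost completely, from 0.11 to 180.0 RPKM in the large and from 3.61 to 226 RPKM in the small subunit. No test was made, because genes of a subunit are not replicates of a condition.

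**Figure D2:**
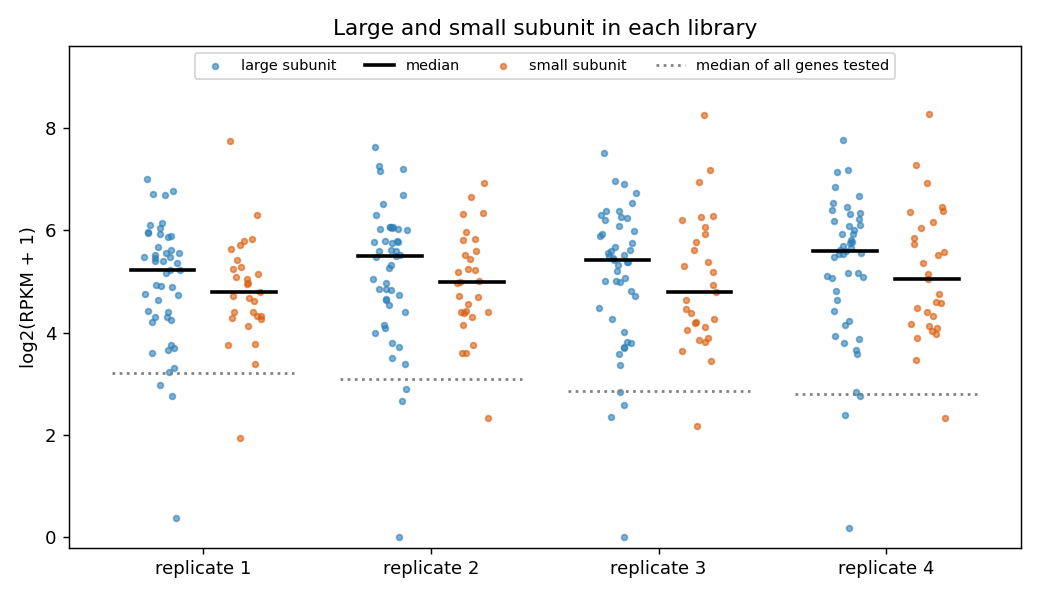
Level of every large-subunit (blue) and small-subunit (orange) gene in each library as log2(RPKM + 1), 1 point per gene, with black bars at the subunit medians and a dotted line at the median of all genes tested. The large-subunit bar lies above the small-subunit bar in all 4 libraries, both lie above the dotted line, and the clouds of points overlap.

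Each subunit was also divided by whether the protein is classed with a bacterial counterpart. In the large subunit, 18 genes without a counterpart had a median of 42.9 RPKM and 29 with one had a median of 41.9 RPKM. In the small subunit, 13 without had a median of 18.5 RPKM and 16 with one had a median of 36.4 RPKM. The 13 include Mrps26, the member with the highest mean. They also include Mrps18a and Mrps18b, which are related in sequence to Mrps18c, the counterpart of bacterial S18, but are classed apart from it. Mrps18a and Mrps30 are counted here by name, although their proteins sit in the large subunit. The classes follow the uniform nomenclature of ribosomal proteins, and the contrast was not tested. Transcript length and base composition were close between the subunits, with medians of 1226 bases and 51.4% G+C over 45 large-subunit genes and 1107 bases and 50.7% G+C over 27 small-subunit genes.

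The median member varied between libraries slightly less than the median gene. The median SD over the 4 libraries, on the log2(RPKM + 1) scale, was 0.22 for the members (0.20 for the large and 0.28 for the small subunit). It was 0.26 over all genes tested and 0.31 over genes called above 1 RPKM. After Mrps26 (0.91) and Mrps11 (0.58), the largest spreads were those of Mrpl47 (0.55) and Mrpl50 (0.45). Mrpl47, at the tunnel exit, stood at 17.9, 22.3, 9.34 and 11 RPKM, and without replicate 3 it was called above 10 RPKM (limma adjusted p = 0.0494, against 0.102 with all 4). Mrpl50, which has no bacterial counterpart, stood at 44.6, 65.8, 32.6 and 34.8 RPKM. Both were higher in replicates 1 and 2 than in replicates 3 and 4, which is the reverse of Mrps11. Mrpl54 and Mrps23 followed the other order, at 40.99, 65.3, 74.9 and 78.3 RPKM for Mrpl54 and 34.6, 44.9, 59.4 and 65.2 RPKM for Mrps23. The smallest spreads were those of Mrpl3 (0.06), Mrpl11 (0.07), Mrps30 (0.10) and Mrps18b (0.11).

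**Figure D3:**
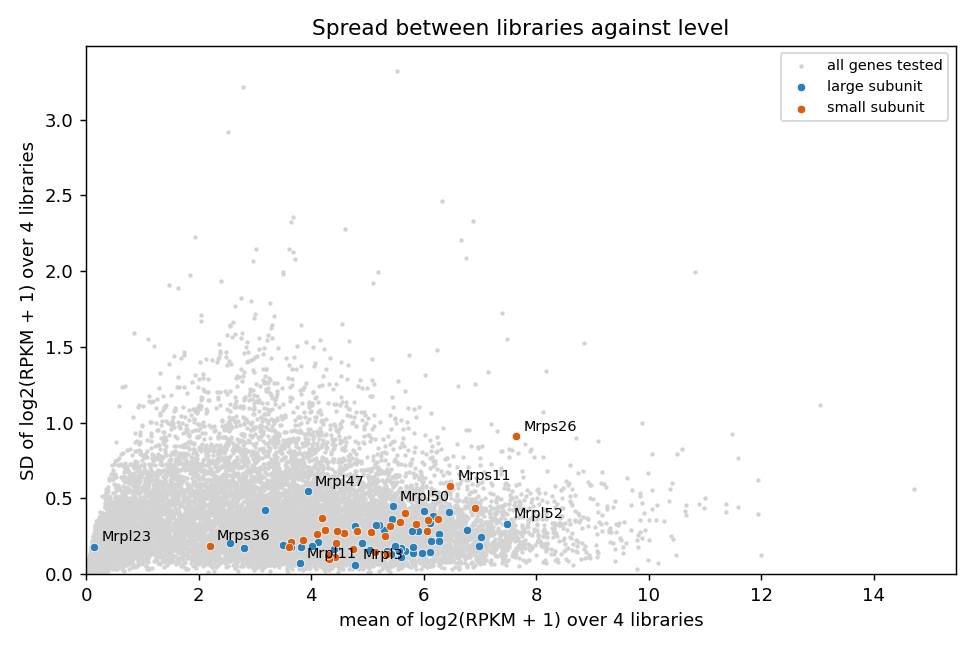
SD of log2(RPKM + 1) over the 4 libraries (vertical axis) against the mean of log2(RPKM + 1) (horizontal axis) for all genes tested (grey) and for large-subunit (blue) and small-subunit (orange) genes. Mrps26 (SD 0.91), Mrps11 (0.58) and Mrpl47 (0.55) stand above the other members, and Mrpl3 (0.06) and Mrpl11 (0.07) lie at the bottom.

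Most members shared their lowest library, and most shared their highest. In 44 of 76 members (57.9%) the lowest value was that of replicate 1, as it was in 23.7% of all genes tested, and in 40 (52.6%) the highest was that of replicate 4, as it was in 18.9% of all genes tested. Replicate 4 exceeded replicate 3 in 71 of the 76 members, with a median difference of 0.14 on the log2(RPKM + 1) scale. The same count was not made over all genes tested, so the 71 of 76 cannot be set against a share of all genes. The median of all genes tested was 6.29 RPKM in replicate 3 and 6.01 RPKM in replicate 4. Summed over the members, the libraries held 2934, 3459, 3630 and 4001 RPKM, or 0.609%, 0.659%, 0.649% and 0.688% of the summed RPKM. Setting each library to the same summed RPKM shifts the median of all genes in replicate 1 by 0.14 on the log2 scale. It left 32 of 76 members lowest in replicate 1, as were 16.7% of all genes tested. It left 25 members highest in replicate 4, as were 9.45% of all genes tested. Under median-ratio scaling the counts were 49 and 43, and the shares of all genes tested were 28.1% and 16.9%. The 10 markers of insulin-producing cells summed to 3634, 9071, 9691 and 10825 RPKM, sums carried mostly by Iapp and Ins2. Their median was 68.8, 57.2, 99.7 and 106 RPKM, with 4 of the 10 lowest in replicate 1, 5 lowest in replicate 2 and 6 highest in replicate 4. The 6 biliary markers summed to 1069, 2169, 1494 and 1565 RPKM. The part of cell makeup in the order of the members was not tested.

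Base composition moved with these differences. Across the 72 members with a matched transcript, Spearman's rho between G+C content and a library's deviation from the mean of the 4 was negative in replicates 1 (-0.40) and 2 (-0.44) and positive in replicates 3 (0.56) and 4 (0.51). Across 16294 genes of the table the same coefficients were -0.20, -0.56, 0.48 and 0.45. Mrps11 (55.1% G+C) and Mrpl54 (60.4%) had higher values in replicates 3 and 4, and Mrpl50 (42.3%) and Mrpl47 (45.3%) in replicates 1 and 2. Mrps21 (51.1%) and Mrps23 (51.4%) were also higher in replicates 3 and 4, although their G+C content lay near the members' median of 51.2%. The points of a library share its preparation and depth, and the part of base composition in the spread was not tested. Over the members, levels were higher in transcripts richer in G+C (rho 0.40) and lower in longer transcripts (rho -0.47), where over all 16294 genes both coefficients were near 0 (0.08 and -0.01).

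**Figure D4:**
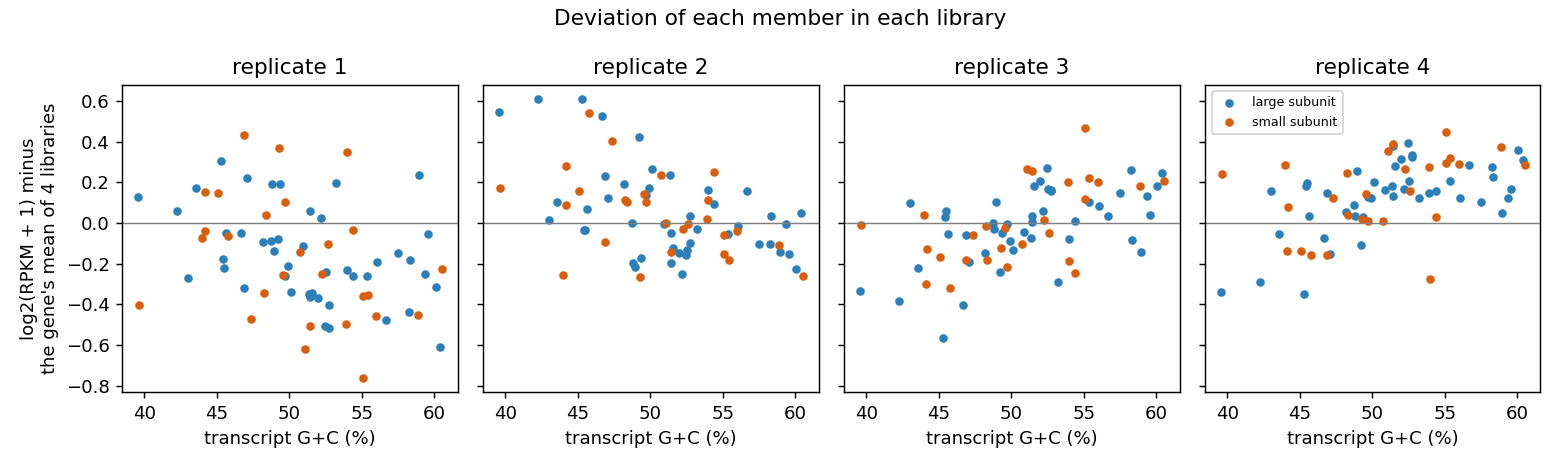
Deviation of each member from its own mean over the 4 libraries, in log2(RPKM + 1), against the G+C content of its transcript in percent, with 1 panel per library, large-subunit genes in blue and small-subunit genes in orange. Points fall toward higher G+C in replicates 1 (rho -0.40) and 2 (-0.44) and climb in replicates 3 (0.56) and 4 (0.51).

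The remaining subunit proteins, whose symbols follow another pattern, had a median of 47.3 RPKM, and the members one of 37.6 RPKM. All 7 were above 1 RPKM and 6 above 10 RPKM, where 65.0% and 35.9% of all genes tested were. Aurkaip1, a small-subunit protein, stood at 98.1, 107, 141 and 141 RPKM. Chchd1, also of the small subunit, stood at 48.6, 80.5, 53.1 and 67.6 RPKM. Ict1, a release-factor relative built into the large subunit, stood at 49.95, 62.1, 58.4 and 64.7 RPKM. Ptcd3 was lower, at 19.3, 22.1, 13.8 and 13.4 RPKM. Dap3, a GTP-binding protein of the small-subunit head, was the lowest at 10.2, 11.99, 13.9 and 15.1 RPKM and was not called above 10 RPKM (limma adjusted p = 0.0787), although it was without replicate 1 (adjusted p = 0.0429).

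The factors that work with the ribosome had a lower median than its proteins. Of 11 translation factors, all were above 1 RPKM, 4 above and 4 below 10 RPKM, with a median of 11.2 RPKM. Over all genes tested, 65.0% were above 1 RPKM, 35.9% above 10 RPKM and 48.2% below 10 RPKM, so 4 of 11 above 10 RPKM is close to the share of all genes. Tsfm, the exchange factor for mitochondrial EF-Tu, stood at 20.9, 22.4, 30.3 and 30.2 RPKM. The initiation factor Mtif3 stood at 20.1, 22.5, 21.96 and 23.7 RPKM, and the elongation factor Gfm1 at 18.3, 18.1, 16.9 and 17.6 RPKM. The release factors Mtrf1 and Mtrf1l were the lowest of the list, at 3.16, 5.57, 3 and 2.89 RPKM for Mtrf1 and 2.8, 2.37, 1.71 and 1.43 RPKM for Mtrf1l. Tufm, the mitochondrial EF-Tu, stood at 4.6, 4.13, 8.45 and 8.69 RPKM, and 74.0% of its 50-base words also occur in the processed pseudogene Gm9755.

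Genes for ribosome assembly and for charging mitochondrial tRNA had medians near that of the factors. Of 23 assembly and rRNA-modification genes, all were above 1 RPKM, 10 above and 5 below 10 RPKM, with a median of 12.3 RPKM. The shares of all genes tested, here and for the synthetases below, were 65.0% above 1 RPKM, 35.9% above 10 RPKM and 48.2% below 10 RPKM. Ngrn led at 58.8, 71.8, 63.3 and 70.05 RPKM, followed by the RNA helicase Dhx30 at 31.1, 25.8, 39.04 and 40.5 RPKM and Rbfa, a small-subunit assembly factor, at 22.4, 19.5, 27.5 and 25.96 RPKM. The lowest were the rRNA methyltransferase Rnmtl1, at 6.02, 5.9, 5.59 and 6.2 RPKM, whose call below 10 RPKM was lost without replicate 3 (limma adjusted p = 0.0589), and the GTPase Gtpbp10, at 4.62, 5.76, 1.81 and 1.62 RPKM, whose call above 1 RPKM was lost without replicate 1 or 2 (adjusted p = 0.0631 and 0.0546). All 17 mitochondrial tRNA synthetases were above 1 RPKM, 7 above and 5 below 10 RPKM, with a median of 8.83 RPKM. Lars2 led at 75.4, 124, 69.5 and 52.9 RPKM, with Tars2 and Rars2 next at means of 27.2 and 24.6 RPKM. Mars2 and Wars2 were the lowest, with means of 3.61 and 2.14 RPKM.

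Of 10 genes for mitochondrial transcription and DNA, 9 were above 1 RPKM, 4 above and 4 below 10 RPKM, with a median of 11.2 RPKM. The shares of all genes tested, here and for the regulators below, were 65.0% above 1 RPKM, 35.9% above 10 RPKM and 48.2% below 10 RPKM. The RNA-stabilising protein Slirp, listed as 1810035L17Rik, led at 40.4, 72.4, 44.9 and 55.3 RPKM, and 93.7% of its 50-base words are shared with other genes, Snw1 first among them. Ssbp1, which coats single-stranded mitochondrial DNA, stood at 18.6, 21.4, 14.1 and 15.3 RPKM. The DNA polymerase Polg stood at 13.4, 11, 18.8 and 18.2 RPKM, and its call above 10 RPKM was lost without replicate 3 or 4 (limma adjusted p = 0.118 and 0.105). Polg2 and Mterf were the lowest, and Mterf, at 2.05, 1.82, 0.94 and 0.77 RPKM, was called neither above nor below 1 RPKM and shares 61.0% of its words with Mterf1b. Of 9 regulators of mitochondrial gene programmes, 7 were above 1 RPKM, 3 above and 2 below 10 RPKM, with a median of 8.84 RPKM. Esrra, a nuclear receptor, stood at 64.2, 43.3, 52.5 and 52.8 RPKM, and Yy1 at 33.1, 30.8, 25.1 and 23.2 RPKM. The GABP subunit Gabpb1 stood at 27.3, 26.2, 14.4 and 14.8 RPKM, its partner Gabpa at 7.43, 10.2, 4.52 and 3.86 RPKM, and Nrf1 at 8.18, 8.33, 8.57 and 9.21 RPKM. The coactivators Ppargc1b, at 2.43, 1.57, 0.34 and 0.37 RPKM, and Ppargc1a, at 0.77, 1.45, 0.47 and 0.42 RPKM, were the lowest and were called neither above nor below 1 RPKM, although Ppargc1a was called below without replicate 2 (limma adjusted p = 0.0136).

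The cytosolic ribosomal proteins gave a contrasting picture. Of 84 such genes 60 were above and 11 below 1 RPKM, where 65.0% and 26.1% of all genes tested were. At the higher level 45 were above 10 RPKM, as were 35.9% of all genes tested, and the median of the 84 was 23.1 RPKM. The mitochondrial members had the higher median and the cytosolic proteins the higher sum, 3.81, 3.70, 2.99 and 3.002 times that of the members in replicates 1 to 4. Cytosolic genes such as Rps21, at 1703, 1376, 1159.9 and 1319.8 RPKM, reached levels that no member did, while others lay near 0. Many cytosolic ribosomal protein transcripts share sequence with pseudogenes (a median of 44.1% of 50-base words), and the part of shared sequence in this contrast was not tested.

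**Figure D5:**
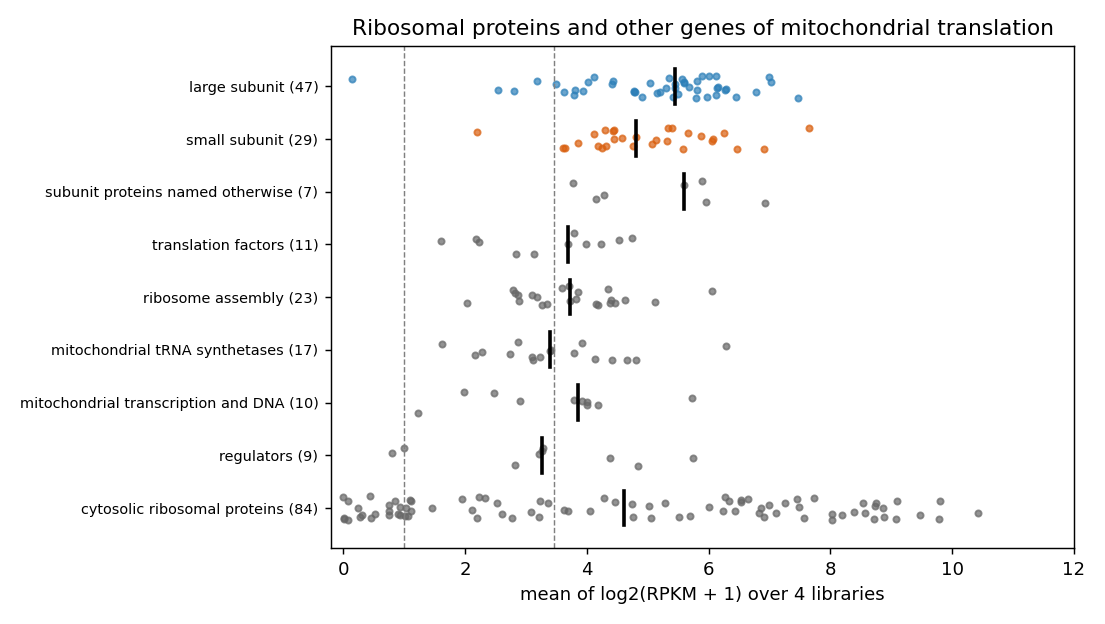
Mean of log2(RPKM + 1) over the 4 libraries for each gene of the large and small mitochondrial ribosomal subunits and of 7 other lists, 1 point per gene, with black bars at the list medians, gene numbers in brackets and dashed lines at 1 and 10 RPKM. The 2 subunits and the subunit proteins named otherwise lie to the right of the factor and enzyme lists, and the cytosolic ribosomal proteins spread from 0 to the highest values.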

How the data were processed

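RNA was measured by sequencing in 4 libraries of 1 group (rGBC2). The authors deposited RPKM values, rounded to 2 decimals, for 20377 genes. CASAVA 1.8.2, Bowtie and the build mm9 are named in the submitters' processing notes. For the read counter, strand setting and multiply matching reads, the method is not given in the sources used here. The table also holds 6 per-sample columns that match no sample analysed here, and they were not used.

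Levels were tested against 1 and 10 RPKM on log2(RPKM + 1), pseudocount 1, with limma 3.58.1 in R 4.3.3. The model had moderated variances with a mean-variance trend, two-sided tests and a threshold of 0.05. P-values were adjusted by Benjamini-Hochberg across 16919 genes, those with a value above 0 in some library. The procedure was tested on simulated data. A log2 scale with a pseudocount understates differences between low genes. Medians in RPKM are converted back from that scale.

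The members and lists were chosen with earlier results of these data known. Named members are the 8 highest and 6 lowest large-subunit and the 6 highest and 4 lowest small-subunit genes, the 4 most and 2 least variable of each (mean of at least 5 RPKM), members not above 1 RPKM and landmark proteins. Of each other list these are the 3 highest and 2 lowest. Genes named for a neighbour, a promoter, a motif's factor or shared sequence were chosen after their values were seen.

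RPKM holds no read totals, so depth was estimated from the steps between low values of 993 olfactory receptor genes. Floors of 3 reads cover counting error only. Lengths, G+C content and shared 50-base words come from GENCODE M21 transcripts, matched for 72 of 76 members, and promoter windows from RefSeq. Alternatives changed the filter, the pseudocount, the variance model, the scaling and the libraries used.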

Additional observations from a re-analysis of the deposited data

Results flagged for a closer look

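Mrps5, a small-subunit protein with a bacterial counterpart, stood at 24.52 RPKM in replicate 1, against 16.7, 15.7 and 15.97 RPKM in replicates 2 to 4. The gap between its highest and next value took 0.854 of its range on the log2(RPKM + 1) scale, and it was the only one of 76 members to pass Dixon's critical value at 95%. The measure is relative to a gene's own range, and larger shifts such as that of Mrps26 in replicate 2 (79.7 RPKM, against 213, 302 and 309 RPKM in replicates 1, 3 and 4) do not pass it where the other 3 values are also spread. Chance alone flags about 1 in 20 such groups of 4 values, so a single flag among 76 is no more than chance gives, and the cause was not tested.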

How the results depend on the processing

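No paired analysis was possible because the libraries form 1 group. The count of members above 1 RPKM was 75 under every alternative run, leaving out each replicate included. The count above 10 RPKM was 65 with only genes of a mean of at least 0.1 RPKM tested or with median-ratio scaling, and 63 to 65 with 1 replicate left out. Mrpl45 lost its call above 10 RPKM under the first 2 of these (limma adjusted p = 0.0503 and 0.0535). The difference of large-subunit and small-subunit medians lay between 0.50 and 0.56 with 1 replicate left out, and was 0.14 with means in place of medians. The median level was 35.4 to 39.9 RPKM and the median SD 0.17 to 0.26 with 1 replicate left out. The differences between Mrps18 genes were 1.35 to 1.56 (Mrps18a minus Mrps18b), -0.47 to -0.24 (Mrps18a minus Mrps18c) and -1.95 to -1.69 (Mrps18b minus Mrps18c). The count of members highest in replicate 4 was 25 with summed RPKM set equal, a scaling chosen after seeing the data, and 40 as deposited. The share of all genes tested that were highest in replicate 4 was 9.45% under that scaling and 18.9% as deposited. The log2 difference of Mrpl17 from 10 RPKM was -0.019 without replicate 4, and up to 0.12 without replicate 1. Ppargc1b moved below 1 RPKM with a pseudocount of 0.1 (-0.19), with median-ratio scaling (-0.011), and without replicate 1 or 2 (-0.25 and -0.12), and was at 0.20 without replicate 3. Neither gene was called in any of these. The causes were not tested. Of 1278 values for single genes under alternatives, 1252 kept direction and side, 17 lost a call, 4 gained one and 5 changed sign.

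Depth is an estimate that a whole multiple would fit as well, with higher read numbers and lower floors. Rounding to 2 decimals limits values near 0. Calls near 10 RPKM rest on few libraries.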
